A study of Drosophila melanogaster with 2 samples.

Results

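The nuclear transfer RNA (tRNA) genes of Drosophila melanogaster were examined for peaks of CG7987 in chromatin from whole embryos. The set holds the 290 genes annotated as tRNA on the 6 chromosome arms, of 18164 genes in all, and was chosen by annotation alone. The 22 mitochondrial tRNA genes were not used. Chromatin immunoprecipitation with sequencing (ChIP-seq) was performed on 2 biological replicates that form 1 group: embryos of mixed sex aged 0 to 24 h, from a transgenic line in which CG7987 carries GFP at its C-terminal end. The labels give no promoter or copy number for the fusion gene. All cell types of the embryo were pooled, so a peak does not say in which cells the protein was present. Per the labels, chromatin was sonicated to a size range of 200 to 800 and coordinates are on dm6. The assay and antibody labels describe ChIP for CG7987, whereas a free-text line describes both libraries as input control. They were treated as ChIP here, and no value below tests this.

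The main list holds 4410 peaks kept by the authors at an irreproducible discovery rate (IDR) threshold, a filter on how alike peaks rank in replicates. These were the 4410 strongest of 30000 candidate peaks called on the pooled replicates. Replicate 1 and replicate 2 each had a list of 30000 candidates as well, so list length says nothing of how much chromatin was recovered. The candidate lists are labelled as peaks and background, and their weaker entries may be background. Each peak has a summit and a signal, which is the caller's measure of its strength, in units that the labels and readme texts do not name. Where more than 1 summit of a list lay within 500 bp of a tRNA gene's start, the gene's signal and position are those of the nearest. That summit need not be the strongest. For each tRNA gene a replicate's value is that of the candidate nearest to the pooled summit among those within 500 bp of the gene's start. The depth of the libraries is unknown from these lists. A gene was counted when a summit lay within 500 bp of its transcription start site (TSS), which for a tRNA gene is the annotated 5′ end of the mature tRNA and not the first transcribed base. A coding gene can have several TSSs and a tRNA gene has 1, which gives the coding gene more chances to be counted.

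As background, tRNA genes are transcribed by RNA polymerase III and carry their promoter inside the gene. The A box and the B box, which encode the D arm and the T arm of the tRNA, are bound by TFIIIC. TFIIIC places TFIIIB upstream of the start, and TFIIIB, made in flies of Brf, Bdp1 and the TBP relative Trf, recruits the polymerase. Transcription ends in a run of T just after the gene. The genes are short, occur in many copies and often lie in clusters, which in other eukaryotes are also known as sites where chromatin domains meet.

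The genes had a median length of 73 bp, from 71 to 186 bp, and held only 95 distinct sequences. An identical copy elsewhere in the set was found for 238 genes, in groups of up to 13, and 52 genes had none. The following genes are shown to give the range of sequences behind the results: 5 genes with an IDR summit, from the second strongest to the weakest, and 2 of the strongest candidates that missed the IDR list. Sequences come from the RefSeq genome, whose assembly is that of dm6, and are written along the gene's strand. Capitals mark the A box and the B box core, searched as GTTCNANNC. Genes for Tyr-GTA, Leu-CAA and Ile-TAT carry an intron between the boxes, and tRNA:Ala-AGC-2-1 has no match to the B box core.
tRNA:Tyr-GTA-1-8 (chr3R:8669081-8669174, minus strand): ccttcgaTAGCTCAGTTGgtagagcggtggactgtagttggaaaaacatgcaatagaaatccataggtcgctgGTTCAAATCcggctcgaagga
tRNA:Tyr-GTA-1-6 (chr3R:8668116-8668208, minus strand): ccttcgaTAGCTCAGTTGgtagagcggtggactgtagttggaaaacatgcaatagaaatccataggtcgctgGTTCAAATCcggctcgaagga
tRNA:Ser-AGA-2-4 (chr2L:3173003-3173084, minus strand): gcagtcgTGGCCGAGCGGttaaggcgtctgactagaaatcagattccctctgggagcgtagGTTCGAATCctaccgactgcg
tRNA:Leu-CAA-2-3 (chr3R:23601333-23601455, minus strand): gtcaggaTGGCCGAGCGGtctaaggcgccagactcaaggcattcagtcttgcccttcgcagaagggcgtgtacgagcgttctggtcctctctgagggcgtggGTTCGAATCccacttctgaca
tRNA:Gln-TTG-1-3 (chr3R:26947512-26947583, minus strand): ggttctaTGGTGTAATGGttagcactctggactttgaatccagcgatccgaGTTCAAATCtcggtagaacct
tRNA:Ala-AGC-2-1 (chr3L:8028546-8028618, minus strand): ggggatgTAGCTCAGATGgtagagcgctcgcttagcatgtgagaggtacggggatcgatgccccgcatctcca
tRNA:Ile-TAT-1-2 (chr3L:770363-770462, plus strand): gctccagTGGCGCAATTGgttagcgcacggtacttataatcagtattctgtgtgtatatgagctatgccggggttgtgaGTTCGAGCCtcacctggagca

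A match to the A box was found on the gene's own strand in 270 of 290 genes (93.1%) and to the B box core in 271 (93.4%). In windows of the same length placed 1000 bp upstream the shares were 2.76% and 3.45%. On both strands together the upstream windows matched in 7.93% and 4.83%. Most genes had both boxes, whether or not they had a summit: the A box was present in 25 of 27 genes with an IDR summit and in 112 of 118 genes without any pooled candidate, and the B box core gave the same pair of counts. A run of TTTT within 30 bp after the gene was found in 277 genes (95.5%), in 22 of the 27 genes with an IDR summit (81.5%) and in 115 of the 118 without a candidate (97.5%).

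An IDR summit lay within 500 bp of 27 tRNA genes, or 9.31% (95% exact interval 6.23 to 13.3), beside 17.2% of all genes on the arms and 20.5% of protein-coding genes. Among other noncoding genes the share was 6.53% for ncRNA genes, 8.55% for small nucleolar RNA genes and 15.6% (5 of 32) for small nuclear RNA genes. The interval of the tRNA share lay below the share of all genes. In the pooled candidates the tRNA share was above that of all genes: 172 tRNA genes (59.3%, interval 53.4 to 65.0) had a summit, beside 49.5%. The share was 55.4% for coding genes, which the tRNA interval includes, 30.1% for ncRNA genes and 29.0% for small nucleolar RNA genes. Replicate 1 alone had a candidate at 176 tRNA genes (60.7%), beside 48.8% of all genes. Replicate 2 alone had a candidate at 168 tRNA genes (57.9%), beside 49.8% of all genes. All intervals cover counting error only, and neighbouring tRNA genes that share a summit are not independent.

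The candidates at tRNA genes were mostly of middle rank. Of the 172 tRNA genes with a pooled candidate, 15.7% (interval 10.6 to 22.0) also had an IDR summit, whereas this held for 2857 of the 7721 coding genes with a candidate, 34.8% of all genes with one, 21.7% of ncRNA genes and 29.5% of small nucleolar RNA genes. The strongest candidate within reach had a median rank of 11122 at tRNA genes and 6419 at coding genes. With the 1000 strongest candidates, 1.38% of tRNA genes and 4.90% of coding genes were reached. With 10000 the shares were 26.6% and 36.8%, with 15000 they were 42.8% and 44.5%, with 20000 both were 49.3%, and with all 30000 they were 59.3% and 55.4%. The share of tRNA genes passed that of all genes between 10000 and 15000 peaks, where all genes rose from 31.5% to 38.5%.

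**Figure D1:**
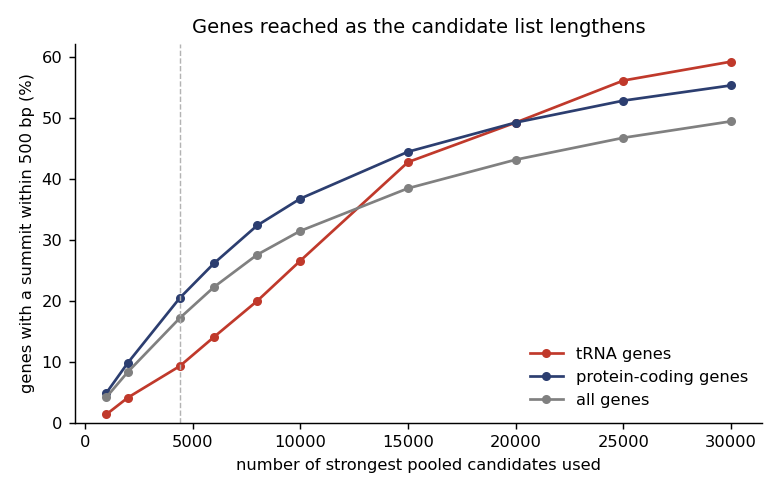
Share of genes with a summit within 500 bp of a TSS (y axis, percent) when only the strongest pooled candidates are used (x axis, number of peaks), for tRNA genes, protein-coding genes and all genes. The dashed line marks 4410 peaks, the length of the IDR list, where 9.31% of tRNA and 20.5% of coding genes are reached; at 30000 peaks the tRNA line ends highest, at 59.3%.

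The 27 genes shared 20 IDR summits in 17 of the 144 tRNA loci, a locus being a run of genes whose starts are at most 5 kb apart. More than 1 tRNA gene lay within reach of 6 of the 20 summits. A protein-coding TSS lay within 500 bp of 11 summits and of none of the other 9. Counted by gene, 13 genes shared their summit with a coding TSS and 14 did not. The matching share over the whole IDR list is not given here, so these counts do not set the tRNA summits apart from it. The summit was nearer to a tRNA start than to any coding TSS in 16 of 20 cases. The median signal of the 20 summits was 218, beside 201 over the whole IDR list, and they spanned 140 to 661. When the 4410 strongest peaks of replicate 2 alone were used in place of the IDR list, 21 tRNA genes were reached (7.24%, beside 17.3% of all genes), of which 12 had no coding TSS at the summit. With the 4410 strongest of replicate 1 alone there were 35 (12.1%, beside 16.9% of all genes), of which 22 had no coding TSS at the summit, so leaving out replicate 2 raised this last count from 14 to 22.

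The 4 strongest tRNA peaks were well above the others. tRNA:Trp-CCA-2-2 (chr2R:18639557-18639628, plus strand) lay 282 bp downstream of a summit with a pooled signal of 661, and the candidate there had rank 148 in replicate 1 and 198 in replicate 2. That summit is 5 bp from a TSS of the coding gene CG30122. tRNA:Tyr-GTA-1-8, whose sequence is printed above, had a signal of 629 at 212 bp upstream, with rank 1113 in replicate 1 and 150 in replicate 2. It lies inside the coding genes p and CG8036, and a TSS of CG8036 is 232 bp from the summit. tRNA:Ala-TGC-2-1 (chr2R:17392215-17392286, plus strand) had a signal of 519, with ranks of 240 and 324. Its summit is 385 bp downstream of the gene's start and 1993 bp from the nearest coding TSS. tRNA:Phe-GAA-1-2 (chrX:6744471-6744543, minus strand) had 486, with ranks of 197 and 525. The summit is 206 bp downstream of its start and 99 bp from a TSS of RpL17, which encodes a protein of the large ribosomal subunit. Of these 4 genes, 3 thus share the summit with a coding TSS, and the next gene, tRNA:Glu-TTC-1-5, was at 261.

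The genes whose IDR summit had no coding TSS within 500 bp form 9 summits, and tRNA:Ala-TGC-2-1 was the strongest of them. tRNA:Glu-TTC-1-5 (chr2R:19727460-19727531, minus strand) had a signal of 261, with 77.2 in replicate 1 and 174 in replicate 2, and its summit is 13297 bp from the nearest coding TSS. The pair tRNA:Ser-TGA-1-1 and tRNA:Ser-TGA-2-1, which start in opposite directions, shared a summit of 224 between them, at 355 and 126 bp upstream. tRNA:Ser-AGA-2-4 also had 224, with the summit 20 bp upstream of its start and 736 bp from the nearest coding TSS. tRNA:Arg-TCT-1-1 and the elongator tRNA:Met-CAT-1-1 shared a summit of 188, which lies inside the arginine gene, 22 bp from its start. These genes all lie outside any coding gene.

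tRNA:Thr-AGT-1-2 lies inside the coding gene CG12831 and had a signal of 184 at 136 bp upstream. tRNA:Arg-CCT-1-2 and tRNA:Arg-CCT-1-3 face away from each other and shared a summit of 176, at 212 and 239 bp upstream. In this group the replicates differed most here: the peak ranked 10421 in replicate 1 and 1472 in replicate 2. tRNA:Leu-CAA-2-3 had 158 at 146 bp upstream. The initiator genes tRNA:iMet-CAT-1-1 and tRNA:iMet-CAT-1-2, which supply the tRNA that starts protein synthesis, shared with tRNA:Glu-TTC-1-4 a summit of 145, only 4 bp upstream of tRNA:iMet-CAT-1-2 and 11825 bp from the nearest coding TSS. The 14 genes of this group had a median signal of 186, from 145 to 519, and the 13 genes that share their summit with a coding TSS had 214, from 140 to 661, so the ranges overlapped over most of their length.

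The remaining genes that share their summit with a coding TSS were weaker than the first 4. tRNA:His-GTG-1-3 had 238, with the widest gap between replicate ranks of all 27 genes, 12461 and 1047, and its summit is 51 bp from a TSS of CG8490. In the same cluster tRNA:His-GTG-1-4 had 167, with the summit 2 bp inside the gene and 470 bp from a TSS of CG34021. tRNA:Val-CAC-2-5 had 237 and lies inside Naam, which encodes a nicotinamidase. tRNA:Thr-AGT-1-4 had 222 and lies inside CG31279, and here replicate 1 was the stronger, with rank 713 beside 4480 in replicate 2. tRNA:Leu-TAA-2-1 had 214 beside CG13605. tRNA:Asp-GTC-1-4 and tRNA:Asp-GTC-1-5 had 189 beside Sema1a, which encodes a transmembrane semaphorin of axon guidance. The last 3 genes were tRNA:Tyr-GTA-1-6 at 141 and tRNA:Gln-TTG-1-2 and tRNA:Gln-TTG-1-3 at 140, close to the lower end of the IDR list.

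**Figure D2:**
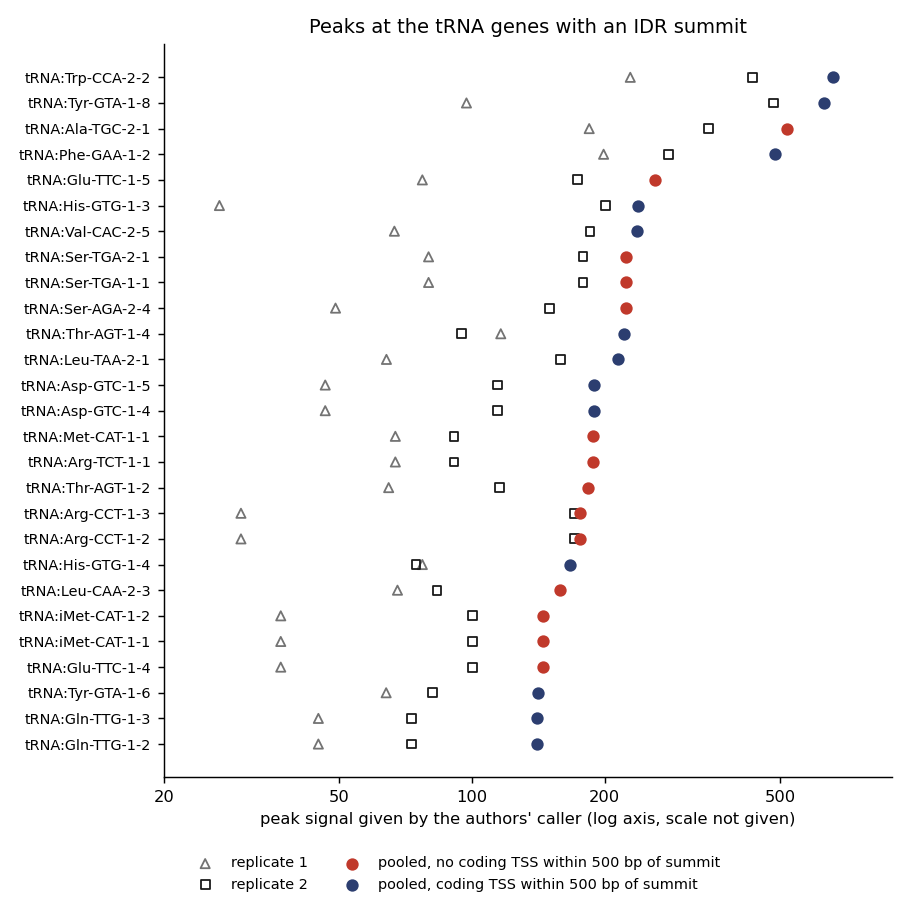
Peak signal (x axis, log scale, in the caller's own units) at each of the 27 tRNA genes with an IDR summit (y axis). Filled circles give the pooled signal, red without and blue with a coding TSS within 500 bp of the summit; triangles and squares give the nearest candidate in replicate 1 and in replicate 2. Red genes run from 145 to 519 and blue genes from 140 to 661. Genes that share a summit have equal values, and signals of different lists were not scaled to each other.

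The 500 bp limit cut through several neighbours. Just inside it were tRNA:Val-CAC-2-5 at 478 bp and tRNA:Ala-TGC-2-1 at 385 bp. Just outside it were tRNA:Tyr-GTA-1-7 at 504 bp from the summit of 141, tRNA:Ile-AAT-1-9 at 518 bp from a summit of 349, and tRNA:Gly-GCC-1-9 at 521 bp from the same summit of 661 that was counted for tRNA:Trp-CCA-2-2. In the pooled list tRNA:Ala-AGC-2-10 was inside at 493 bp and tRNA:Ala-AGC-1-1 was outside at 502 bp, with signals of 57.2 and 63.7.

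Every one of the 27 genes had a candidate in both replicates, but the ranks of these candidates varied. The IDR filter itself rests on how peaks rank in replicates, so this count is not independent of it. A candidate counted here need not be the same peak as the IDR summit. The ranks ran from 148 to 12461 with a median of 2624 in replicate 1, and from 150 to 6896 with a median of 3210 in replicate 2. The candidate stood among the first 4410 in replicate 1 for 16 genes, in replicate 2 for 19, in both for 10 and in neither for 2. Over all 290 genes, 149 had a candidate in both replicates, 27 only in replicate 1, 19 only in replicate 2 and 95 in neither. Of the 172 genes with a pooled candidate, 144 had one in both. For none of these replicate counts is the matching share over all genes given here, so they do not set tRNA genes apart. Over the 107 distinct pooled summits at tRNA genes with a candidate in each replicate, signals correlated with a Pearson r of 0.549 on the log10 scale and a Spearman rho of 0.350, a description across summits that are not independent.

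Where the summit lay relative to the gene was described for both lists. Genes that share a summit are not independent, and a difference between the lists was not tested. Of the 27 genes with an IDR summit, 17 had it upstream of the start, 4 inside the gene and 6 downstream. The median was 126 bp upstream, and 13 genes had it 100 to 300 bp upstream. It was upstream for 10 of the 14 genes without a coding TSS at the summit and for 7 of the 13 with one. Of the 172 genes with a pooled candidate, 90 had the nearest summit upstream, 42 inside and 40 downstream, and it lay within 50 bp of the start for 60 genes and within 100 bp for 78. In bins of 100 bp, the pooled summits were densest over the first 100 bp from the tRNA start, which holds most of the gene, at 15.5 per 100 genes. At coding TSSs the highest bin was the 100 bp just upstream, at 17.6 per 100 TSSs. Pooled summits were 2.32 times as dense within 200 bp of tRNA starts as at 1000 to 3000 bp, and 3.28 times as dense at coding TSSs. In the IDR list these ratios were 2.28 and 6.40. The IDR curve at tRNA genes rests on few summits per bin, at most 9. The bin of 9, at 201 to 300 bp upstream, lies outside the 200 bp used for the ratios.

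**Figure D3:**
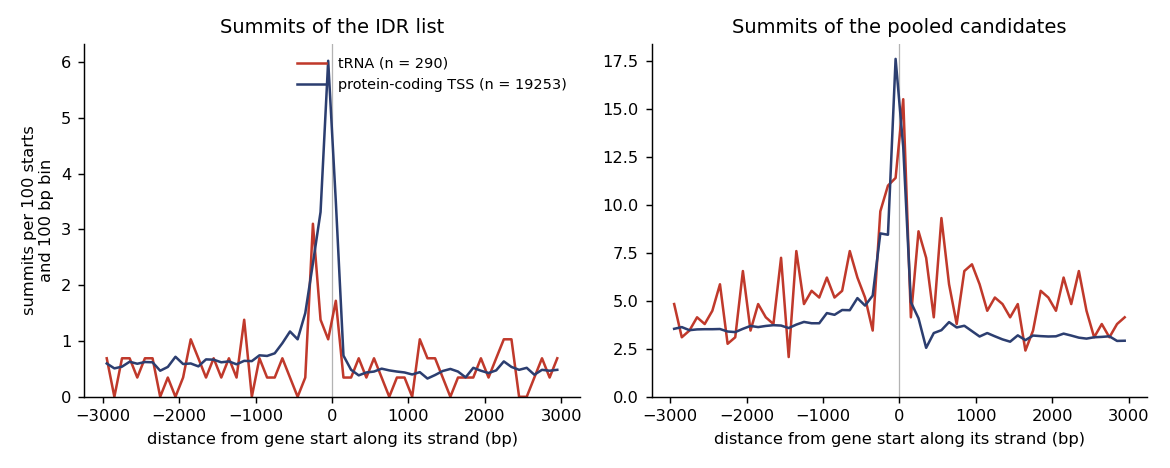
Summits per 100 starts in bins of 100 bp (y axis) by distance along the gene's strand (x axis, bp), for 290 tRNA genes and 19253 protein-coding TSSs, in the IDR list (left) and the pooled candidates (right). In the pooled list both curves peak at the start, at 15.5 and 17.6; in the IDR list the coding curve reaches 6.02 and the tRNA curve 3.10, the latter from 9 summit and gene pairs. A summit counts for every start in range.

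The bases around the summits show how closely some of them sat on the tRNA itself. The windows of 101 bp below are centred on an IDR summit, and capitals mark letters that belong to the tRNA gene. At tRNA:Gln-TTG-1-3 the window covers 70 bases of the gene, at tRNA:Ser-AGA-2-4 it covers 31, and at tRNA:Tyr-GTA-1-8 none.
Summit at tRNA:Ser-AGA-2-4 (chr2L:3173054-3173154, plus strand): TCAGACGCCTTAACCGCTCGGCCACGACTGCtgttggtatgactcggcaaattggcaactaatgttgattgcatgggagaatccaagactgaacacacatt
Summit at tRNA:Gln-TTG-1-3 (chr3R:26947514-26947614, plus strand): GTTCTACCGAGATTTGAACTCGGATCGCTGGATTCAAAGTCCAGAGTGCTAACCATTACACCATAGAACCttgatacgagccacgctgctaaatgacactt
Summit at tRNA:Tyr-GTA-1-8 (chr3R:8669336-8669436, plus strand): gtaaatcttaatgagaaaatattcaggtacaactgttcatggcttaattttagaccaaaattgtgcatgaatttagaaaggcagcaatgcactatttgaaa

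Within 50 bp of the summit, on both strands, the B box core GTTCNANNC was found at 5 of 20 IDR summits at tRNA genes (25.0%). It was found at 39 of 162 pooled summits (24.1%), beside 3.42% in both complete lists. Such windows can reach into the genes, most of which hold this word. These summits were chosen for lying near tRNA genes, so the higher shares can follow from that choice alone. Words known from fly promoters were counted in the same windows. CGATA, the core of the longer TATCGATA, was found at 3 of 20 IDR summits at tRNA genes, beside 20.2% of all IDR summits, and at 12.3% of pooled summits at tRNA genes, beside 15.6%. TATCGATA, known as the DRE, was found at 1 of 20, beside 2.79%. GGTCACACT, known as promoter Motif 1, was found at 0 of 20, beside 2.11%, and at 0 of 162 pooled summits, beside 0.963%. The E box CAGCTG was found at 0 of 20, beside 7.19%, and CACGTG at 1 of 20, beside 3.22%. A match is a description of letters, and with 20 summits these counts are too small to set the shares apart.

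Distance to a coding TSS separated the IDR genes more than the pooled candidates. Of the 32 tRNA genes within 500 bp of a coding TSS, 11 (34.4%) had an IDR summit, and 14.6% of all bases at such a distance lay within 500 bp of one. For the 91 genes at 501 to 2000 bp it was 6 (6.59%, beside 3.02% of bases), and for the 167 genes farther than 2000 bp it was 10 (5.99%, beside 1.23% of bases). With pooled candidates the shares were 65.6%, 68.1% and 53.3%, beside 48.2%, 22.6% and 12.1% of bases. The replicates gave 57.5% and 53.3% for the most distant genes, beside 11.7% and 12.3% of bases. Thus 89 of the 167 tRNA genes that are more than 2000 bp from any coding TSS had a pooled candidate. Of the 172 genes with a pooled candidate, 150 had no coding TSS within 500 bp of the nearest summit. The matching share over all pooled candidates is not given here. Since tRNA genes cluster and share summits, the 46 such distant genes that form a locus alone were also counted, and 16 of them (34.8%) had a pooled candidate and 1 an IDR summit.

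**Figure D4:**
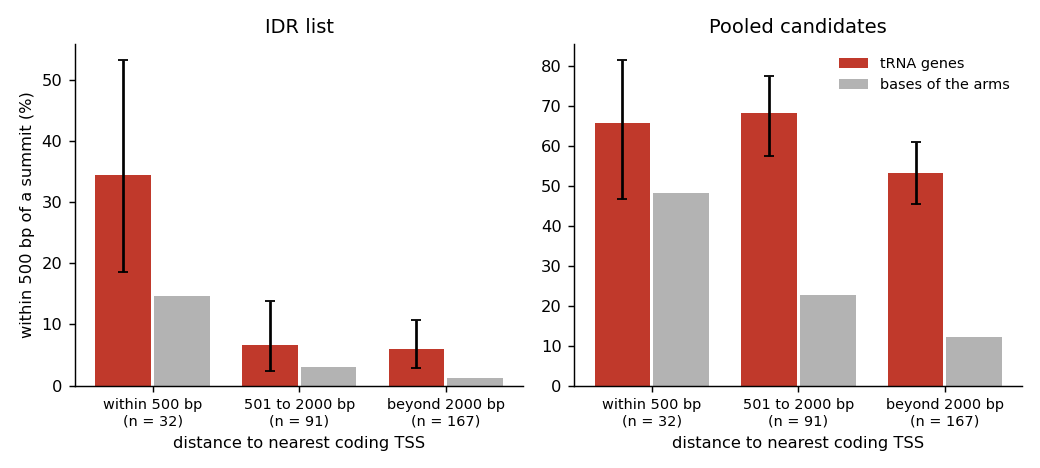
Share of tRNA genes with a summit within 500 bp (red bars, percent; black lines, exact 95% interval for counting error) by distance to the nearest protein-coding TSS, beside the share of all bases of the arms at that distance that lie within 500 bp of a summit (grey bars), for the IDR list (left) and the pooled candidates (right). In the pooled list the red bars stay at 65.6, 68.1 and 53.3% while the grey bars fall from 48.2 to 12.1%.

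The share of genes with a pooled candidate increased with the size of the locus, and the IDR share did not follow this order. Of 76 genes that stand alone, 40.8% (interval 29.6 to 52.7) had a pooled candidate, not above the 49.5% of all genes. For 142 genes in loci of 2 to 4 it was 60.6%, and for 72 genes in loci of 5 or more it was 76.4%. The same order was present in replicate 1 (40.8, 62.7 and 77.8%) and in replicate 2 (35.5, 64.1 and 69.4%). The IDR shares were 6.58%, 12.7% and 5.56%. A candidate between close neighbours counts for each of them, and how much of the order comes from this was not tested.

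The largest loci differed from each other. An 11-gene locus of Ala, Pro, Thr and Val genes (chr3R:17617761-17631750) had 7 genes with a pooled candidate and no IDR summit. Another 11-gene locus, of Asn, Lys, Arg and Ile genes (chr2R:6161535-6171759), which lies partly inside EcR, the gene of the ecdysone receptor, had 10 and no IDR summit. There are 3 loci of 7 genes. The one of iMet and Glu genes (chr2R:19725620-19728958) had candidates at all 7 and IDR summits at 4. The one of Ile and Leu genes inside ATP8A (chr2R:13430282-13432794) had candidates at 6 and no IDR summit. The one of Arg and Ser genes on X (chrX:14014814-14017284) had no pooled candidate, and only replicate 1 placed a weak peak, of rank 24142, near 2 of its genes.

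In pairs of neighbouring genes no more than 1 kb apart, the share with a summit in the gap was highest where both genes start from it. Such divergent pairs numbered 25, of which 10 (40.0%) had a pooled candidate in the gap and 3 an IDR summit. Of 22 convergent pairs, 3 had a candidate (13.6%) and none an IDR summit. Of 69 tandem pairs, 15 had a candidate (21.7%) and none an IDR summit. Median gaps were 213, 224.5 and 269 bp. The candidate counts were 10, 2 and 13 pairs in replicate 1, and 9, 1 and 16 in replicate 2. The 3 divergent pairs with an IDR summit were tRNA:iMet-CAT-1-1 with 1-2, tRNA:Arg-CCT-1-2 with 1-3 and tRNA:Ser-TGA-1-1 with 2-1. This comparison was chosen after the positions were seen, and no test was made.

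By chromosome arm, pooled candidates were found at 22 of 41 genes on 2L (53.7%, beside 51.4% of coding genes on that arm). On 2R it was 69 of 98 (70.4%, beside 57.9%) and on 3L 28 of 48 (58.3%, beside 55.8%). On 3R it was 49 of 79 (62.0%, beside 55.1%) and on X 4 of 24. X stood lowest, at 16.7%, whereas 58.2% of coding genes on X had a candidate. The replicates gave 7 and 3 of 24 genes on X. By locus, 4 of the 14 tRNA loci on X had a candidate, beside 83 of 144 on all arms. Of the 24 genes on X, 19 are more than 2000 bp from a coding TSS. A candidate was found at 3 of these 19, beside 89 of 167 such genes on all arms. The strongest, tRNA:Phe-GAA-1-2 beside RpL17, was the only IDR gene of the 24 on X (4.17%, beside 16.0% of coding genes on X). On 3L none of 48 genes had an IDR summit (interval 0.0 to 7.4%), beside 21.9% of coding genes on 3L. On 2R it was 15 of 98 (15.3%, beside 22.1%), on 3R 8 of 79 (10.1%, beside 21.5%) and on 2L 3 of 41 (7.32%, beside 20.1%).

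Amino acids were spread widely. Genes of 15 amino acid classes, of 22 with the initiator and selenocysteine counted apart, had an IDR summit, with at most 3 genes each, reached by Arg and Ser. No IDR summit was found for Asn, Cys, Gly, Ile, Lys, Pro or selenocysteine genes. All 11 Ile genes had a pooled candidate, with signals from 38.2 to 123 at the summit nearest each start. None had an IDR summit, and 5 of the 11 lie in the cluster inside ATP8A. Among the other classes of 10 or more genes the pooled counts ran from 14 of 19 for Glu to 6 of 20 for Gly, and Ser genes had 8 of 20, Pro genes 7 of 17 and Lys genes 8 of 19. The place of Gly rests on the pooled list: it had 9 of 20 in replicate 1 and 10 of 20 in replicate 2. The selenocysteine gene, which decodes a stop codon recoded for that amino acid, had a weak candidate of 45.3 at 16 bp inside the gene, of rank 21024. Counts per class are small, and genes of a class often share a cluster.

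**Figure D5:**
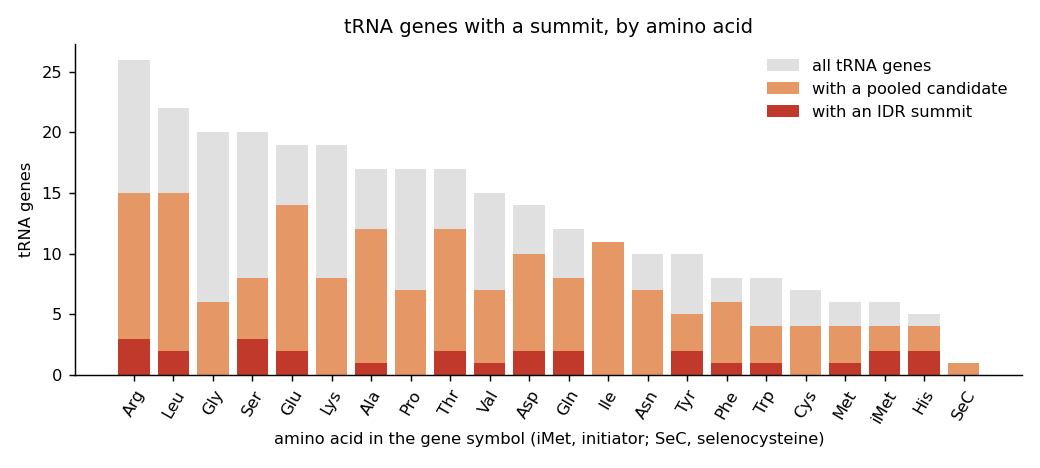
Number of tRNA genes (y axis) by amino acid (x axis, ordered by gene number): all genes in grey, those with a pooled candidate within 500 bp in orange and those with an IDR summit in red, drawn over each other from 0. The orange bar covers all 11 Ile genes, against 6 of 20 Gly genes; red bars reach at most 3 genes.

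Short reads that fall inside identical copies may not be placed uniquely, so genes were also split by this property. Of 238 genes with an identical copy, 61.8% had a pooled candidate and 7.98% an IDR summit. Of the 52 without, the shares were 48.1% and 15.4%. The summit lay inside the gene in 23.8% and 28.0% of those with a candidate, and the median signal was 70.1 and 100. The part played by read placement in these shares was not tested. Genes inside a coding gene had an IDR summit in 5 of 134 cases (3.73%) and genes outside in 22 of 156 (14.1%), whereas pooled shares were 59.7% and 59.0%.

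A further 145 genes had a pooled candidate without an IDR summit. At the summit nearest each start, signals ran from 33.9 to 133 with a median of 65.9. The strongest were tRNA:Ala-AGC-2-1 at 133, tRNA:Gly-GCC-1-13 at 129, tRNA:Ile-TAT-1-2 at 123, tRNA:Thr-TGT-2-1 at 122 and the divergent pair tRNA:Phe-GAA-1-4 and tRNA:Phe-GAA-1-5 at 120. Of these, tRNA:Gly-GCC-1-13 shares its summit with a TSS of tud, which is needed for germ plasm. No pooled candidate was found at 118 genes.

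A list of 104 other genes was drawn up by symbol as transcripts of RNA polymerase III. Which polymerase transcribes each of them in these embryos was not checked. Of the 104, 3 had an IDR summit (2.88%, beside 17.2% of all genes) and 4 a pooled candidate (3.85%, beside 49.5%). These shares are set by the 96 copies of 5SrRNA, near-identical tandem repeats of which none had a candidate in the pooled list, so that all 3 and 4 are among the other 8 genes. Among the genes of the U6 spliceosomal RNA, whose promoters lie upstream of the gene, snRNA:U6:96Ab and snRNA:U6:96Ac shared an IDR summit of 244, at 118 bp upstream of snRNA:U6:96Ac, and snRNA:U6:96Aa had a candidate of 47.6. RNaseMRP:RNA, the RNA of an endonuclease that processes ribosomal RNA, had an IDR summit of 156. RNaseP:RNA, whose enzyme trims the 5′ end of tRNA precursors, had only weak candidates in the replicates, and both 7SLRNA genes and snRNA:U6atac had no pooled candidate.

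Of 20 coding genes of the polymerase III machinery, 5 had an IDR summit (25.0%, beside 20.5% of all coding genes) and 15 a pooled candidate (75.0%, beside 55.4%). Bdp1 had 353 and Brf 257, both subunits of TFIIIB, the polymerase subunit gene Polr3E had 259, and Pbp49, of the complex that activates small nuclear RNA promoters, had 143. Trf, the third TFIIIB component, had a pooled candidate of 52.6. Maf1, a repressor of the polymerase, and Polr3K had none in any list. Of 7 genes of tRNA processing and modification, 3 had an IDR summit (beside 20.5% of all coding genes), with 238 at wuho, needed for 7-methylguanosine in tRNA, 220 at Archease, a partner of the tRNA ligase, and 143 at Mt2, a cytosine methyltransferase of tRNA. All 7 had a pooled candidate, beside 55.4% of coding genes, including 85.2 at RtcB, the tRNA ligase, and 96.5 at RNaseZ, which trims the 3′ end.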

How the data were processed

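The authors deposited peak lists on dm6 for each replicate, for the pooled replicates and for the peaks kept by IDR, per the labels and the deposited readme texts. Each peak has a signal, which the authors gave on an unstated scale, and a deposited −log10 q-value, which has 1 value throughout the IDR list. Ranks therefore follow the signal. The sources used here name no aligner, peak caller or IDR threshold, and do not state how reads with several placements were treated. Depth is unknown.

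Genes and TSSs came from Ensembl release 115 on BDGP 6.54 and sequence from the RefSeq genome, with positions counted from 1, on 6 arms. In replicate 1, 1 candidate lay off the arms. Each window was 500 bp to either side of the TSS, and tRNA genes with starts at most 5000 bp apart formed a locus. Intervals are exact Clopper-Pearson intervals at 95% and cover counting error only. No test was made and no p-value is given. The counting functions were tested on simulated data with planted summits. Genes were named by rule: all with an IDR summit, those at the limits of the window, the loci with most genes (5, since 3 tied) and the strongest candidates below the IDR list. Members and lists were chosen with earlier results of these data known. Of the list patterns, 7SK, Srp7SL, RpIII128, Trm7_32 and Trm7_34 matched no symbol, and Polr3B is the current symbol of the third. The values of 1 gene of the machinery list are not reported here. Alternatives changed the window, the list, the locus gap and the replicate. The tools were pandas 2.3.3 and numpy 2.4.6 under Python 3.11.15, with intervals from scipy 1.17.1 and plots from matplotlib 3.10.9.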

Additional observations from a re-analysis of the deposited data

How the results depend on the processing

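With windows of 250 or 1000 bp, distance to the gene body, or other locus gaps, counts of tRNA genes, loci and summits stayed within 1.5 times those reported. When the IDR list was reduced to peaks above its median signal, there were 12 tRNA genes (4.14%, beside 9.21% of all genes). Of these 12, at 11 summits in 11 loci, 5 were without a coding TSS at the summit. Among genes with no identical copy there were 8, 5 without a coding TSS, at 7 summits in 6 loci, since this setting leaves 52 genes. With a coding TSS window of 250 bp, 23 genes were without one. Using 1 replicate at a time, the genes without a coding TSS at the summit numbered 12 to 22, the genes 21 to 35, the loci 14 to 25 and the summits 15 to 29. With the 10000 strongest pooled candidates, a shorter list, 77 tRNA genes had one (26.6%, beside 31.5% of all genes). The order of these shares was thus the reverse of that with the full list, 59.3% beside 49.5%. No paired analysis was possible because there is 1 group. The peak lists carry no read counts, so the absence of a peak at a tRNA gene is not shown to be absence of the protein.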
